A study of Rattus norvegicus with 14 samples.

Results

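The potassium channel superfamily was taken as every gene whose symbol is Kcn followed by the letters of a subfamily and a number, which gave 91 of the 30562 genes measured, in 20 subfamilies. The RNA was taken from the L2 to L5 dorsal root ganglia, which hold the cell bodies of sensory neurons, of 7 wild-type male rats. In each rat the extensor digitorum longus, a muscle of the lower leg, had been grafted onto the saphenous nerve on 1 side. This nerve carries sensation from the skin of the leg, and the ganglia of the unoperated side served as the control. Libraries at 6 weeks came from rats A, B and E (3 control and 3 surgical), and those at 8 weeks from rats C, D, G and H (4 control and 4 surgical). Both sides of a rat come from the same operated animal, and a rat was sampled at 1 time only. The ganglia hold neurons of other nerves and several kinds of glia besides the neurons of the grafted nerve, and in such bulk RNA fewer cells of a type and less RNA per cell cannot be told apart. Total counts per library were 18489118 to 28237574, and the 91 genes took 0.0748 to 0.428 percent of them.

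Potassium channels let potassium leave the cell and pull the membrane back towards rest. In sensory neurons they set the resting potential, end the action potential, and limit repetitive firing, and satellite glia use inward rectifiers to clear potassium from around the cell bodies. The pore-forming subunits fall into voltage-gated (such as Kcna, Kcnc, Kcnd, and the Kcnq and Kcnh families), calcium- or sodium-activated (Kcnma, Kcnn, Kcnt, Kcnu), inward rectifier (Kcnj) and tandem-pore leak (Kcnk) channels. Silent subunits (Kcnf, Kcng, Kcns, Kcnv) form no channel alone and alter the pores they join, while Kcnab, Kcnip and Kcne proteins are auxiliary subunits that change the gating or surface level of voltage-gated pores. Kcnmb proteins do the same for the large-conductance calcium-activated channel, and their genes are counted below with the calcium- or sodium-activated channels, not with the auxiliary subunits.

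RefSeq promoter windows of 300 bases, 250 before and 50 after a gene's start on the GRCr8 build, were matched by symbol for 63 of the 91 genes, with 69 windows in all. Searched on both strands, the GC box (GGGCGG) stood in 34 member windows (49.3 percent, against 33.1 percent of all 33469 windows), and the TATA box (TATAAA) in 2 (2.90 percent against 14.2 percent). An AP-1 site (TGANTCA) was found in 3 member windows (4.35 percent against 7.33 percent) and a cAMP response element (TGACGTCA) in none (0 percent against 1.83 percent); no motif contains another. The windows below belong to genes with 4 of the 5 smallest p-values between the times on the control side, the comparison with the family's largest median difference. They are written along the gene's strand with GC boxes, read on either strand, in capitals: Kcnd3 at chr2:195626066-195626365 (plus strand), Kcnc4 at chr2:197788384-197788683 (minus strand), Kcnj5 at chr8:39011047-39011346 (minus strand) and Kcnj15 at chr11:48070700-48070999 (plus strand).
Kcnd3: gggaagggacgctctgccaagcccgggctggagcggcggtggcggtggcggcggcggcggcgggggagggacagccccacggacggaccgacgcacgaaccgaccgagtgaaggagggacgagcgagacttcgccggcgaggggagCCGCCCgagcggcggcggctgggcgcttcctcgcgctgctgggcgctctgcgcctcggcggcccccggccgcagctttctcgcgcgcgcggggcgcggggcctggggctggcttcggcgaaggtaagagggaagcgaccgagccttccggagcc
Kcnc4: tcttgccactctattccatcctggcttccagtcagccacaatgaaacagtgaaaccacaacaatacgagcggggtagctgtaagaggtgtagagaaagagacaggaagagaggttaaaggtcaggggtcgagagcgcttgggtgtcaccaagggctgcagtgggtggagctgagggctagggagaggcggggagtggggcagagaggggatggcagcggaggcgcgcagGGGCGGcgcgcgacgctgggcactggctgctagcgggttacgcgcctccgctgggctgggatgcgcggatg
Kcnj5: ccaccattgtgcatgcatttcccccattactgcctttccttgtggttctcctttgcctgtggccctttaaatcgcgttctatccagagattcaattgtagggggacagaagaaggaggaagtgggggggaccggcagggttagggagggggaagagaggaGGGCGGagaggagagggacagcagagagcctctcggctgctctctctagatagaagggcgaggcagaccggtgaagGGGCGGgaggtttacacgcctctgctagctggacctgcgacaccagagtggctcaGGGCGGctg
Kcnj15: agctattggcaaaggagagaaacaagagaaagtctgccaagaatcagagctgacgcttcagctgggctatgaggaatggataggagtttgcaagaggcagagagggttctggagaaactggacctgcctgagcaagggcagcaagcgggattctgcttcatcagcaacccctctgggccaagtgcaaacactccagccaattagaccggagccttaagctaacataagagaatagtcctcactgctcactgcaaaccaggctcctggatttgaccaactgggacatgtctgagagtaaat
The Kcnd3 window held 1 GC box, the Kcnc4 window 1 and the Kcnj5 window 3. The Kcnj15 window held no match to any of the 4 motifs. A match is a description of these letters only.

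The libraries differed in cell-type RNA, and the summed level of 16 neuronal markers, all found, was 7723 to 32508 CPM (counts scaled to library size by TMM) in the control group at 6 weeks, 4619 to 28375 in the surgical group at 6 weeks, 20037 to 38308 in the control group at 8 weeks and 19662 to 41220 in the surgical group at 8 weeks. The 10 myelinating Schwann cell markers summed to 14572 to 22534, 10965 to 27715, 5391 to 10720 and 2743 to 10953 CPM in the same order. Spinal cord markers reached 1492 CPM in the surgical library of rat B (highest in the other 3 groups 34.2), and muscle markers 42065 CPM in the surgical library of rat C and 6035 in the control library of rat H. No listed marker of ganglion neurons or glia was at 0 in all libraries of a group. The median of the 85 potassium channel genes tested between the sides, as log2 CPM less each gene's mean, was lowest in the surgical library of rat A (-1.60, neuronal marker mean 6.11 log2 CPM), then in the control library of rat B (-1.14, 6.73), the control library of rat A (-0.56, 7.83), the surgical library of rat C (-0.35, 8.15) and the surgical library of rat B (-0.08, 8.26). The other 9 libraries stood at 0.19 to 0.70 with neuronal marker means of 8.48 to 9.28. These 14 points share depth and composition within a library. The part of neuronal RNA content in the comparisons below was not tested, apart from the fits that include the marker level as a term.

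**Figure D1:**
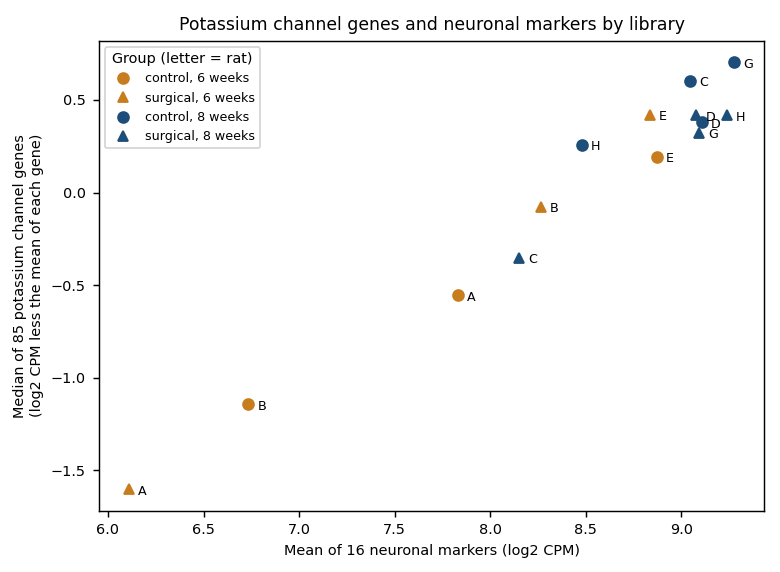
Median of the 85 potassium channel genes (vertical, log2 CPM less each gene's mean over the libraries) against the mean log2 CPM of 16 neuronal markers (horizontal) in each of the 14 libraries. The 2 libraries with the lowest neuronal marker level, surgical of rat A and control of rat B, also have the lowest potassium channel medians, -1.60 and -1.14.

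Compared per transcript length, as TPM, the deposited length-scaled share of transcripts, averaged over all 14 libraries, 20 of the 91 genes reached 10 TPM, 68 reached 1 TPM, and 5 stayed below 0.1 TPM. The most abundant transcripts encoded auxiliary subunits: Kcnab2, a cytoplasmic beta subunit of Kcna channels, averaged 215 TPM (SD 126, n = 14), and Kcnip3, a calcium-binding partner of Kcnd channels that is also known as a transcriptional repressor, averaged 105 TPM (SD 58.0, n = 14). Kcnip2 averaged 46.4 TPM (SD 27.8, n = 14), Kcnab1 46.2 TPM (SD 21.8, n = 14), Kcnip1 31.1 TPM (SD 17.3, n = 14) and Kcnip4 24.9 TPM (SD 16.1, n = 14). Single libraries spread widely around these means, with Kcnab2 at 20.7 to 439 TPM and Kcnip3 at 9.81 to 196 TPM.

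Among the voltage-gated pores, Kcna1, a delayed rectifier of the juxtaparanodes of myelinated axons, was the highest with 57.8 TPM (SD 31.0, n = 14), followed by the A-type channel gene Kcnd1 with 38.1 TPM (SD 21.9, n = 14), the fast, high-threshold channel gene Kcnc4 with 35.4 TPM (SD 26.6, n = 14) and Kcna2, the usual partner of Kcna1, with 28.1 TPM (SD 15.3, n = 14). The other 2 Kcnd genes were lower, Kcnd3 at 8.77 TPM (SD 5.82, n = 14) and Kcnd2 at 0.550 TPM (SD 0.908, n = 14). Among the silent subunits, Kcns3 averaged 38.1 TPM (SD 20.3, n = 14) and Kcns1 28.5 TPM (SD 16.8, n = 14), whereas Kcng1, Kcng2, Kcnf1 and Kcnv1 averaged 7.23, 5.52, 5.54 and 2.99 TPM. Of the M-current family, which opens near rest and damps repetitive firing, Kcnq5 led with 13.9 TPM (SD 9.10, n = 14). Kcnh2, the ERG channel gene, averaged 37.3 TPM (SD 20.6, n = 14) and was the highest of the 8 Kcnh genes.

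The highest calcium-activated channel gene was Kcnn4, an intermediate-conductance channel, at 23.1 TPM (SD 15.8, n = 14), and it also had one library far above the rest, given further on. Kcnmb4, an auxiliary subunit of the large-conductance channel, averaged 10.9 TPM (SD 3.34, n = 14) and its pore gene Kcnma1 averaged 3.98 TPM (SD 2.15, n = 14). Kcnt1, a sodium-activated channel gene, averaged 9.32 TPM (SD 5.21, n = 14). Kcnj10, the inward rectifier of satellite glia, led the Kcnj genes at 16.5 TPM (SD 9.40, n = 14), ahead of Kcnj12 at 9.97 TPM (SD 6.01, n = 14) and Kcnj3, a G-protein-gated rectifier gene, at 6.48 TPM (SD 4.02, n = 14). Kcnk1 led the leak channels at 29.1 TPM (SD 11.3, n = 14), followed by the mechano- and temperature-sensitive Kcnk2 at 8.95 TPM (SD 3.49, n = 14), Kcnk12 at 7.28 TPM (SD 3.31, n = 14) and Kcnk18, a background channel known from sensory neurons, at 5.79 TPM (SD 4.03, n = 14). Kcne4, a single-pass subunit that inhibits Kcna and Kcnq channels, averaged 5.56 TPM (SD 1.93, n = 14) and led the Kcne genes. At the low end stood Kcnu1, known from sperm, at 0.0288 TPM (SD 0.0258, n = 14). The genes not tested between the sides were Kcna10, Kcne1, Kcnh3, Kcnmb3, Kcns2 and Kcnu1, whose highest count in any library was 3 to 30.

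**Figure D2:**
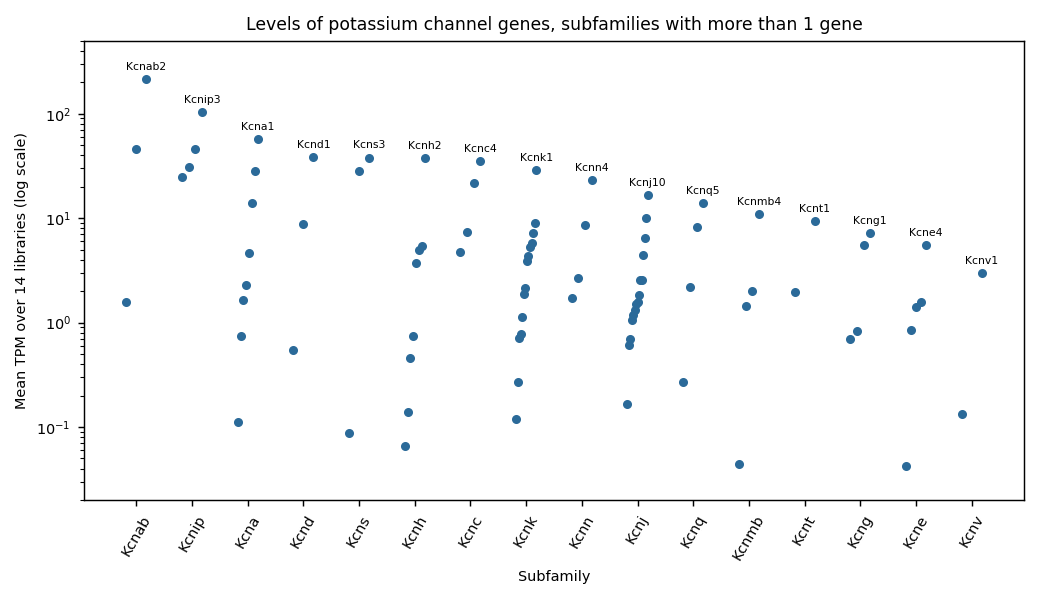
Mean TPM over the 14 libraries (vertical, log axis) of each potassium channel gene in the subfamilies with more than 1 gene, in columns by subfamily (horizontal) with the highest gene of each named. Kcnab2 at 215 TPM and Kcnip3 at 105 TPM stand highest.

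The first comparison asked whether the ganglia of the operated side differed from those of the control side, within rats and over both times. No potassium channel gene passed the test: 0 of the 85 reached an adjusted p of 0.05 in edgeR, as did 0 percent of all 17035 genes tested, and 2 reached an unadjusted p of 0.05 in edgeR, both lower on the surgical side (background 2.42 percent, of which 0.963 percent higher and 1.46 percent lower). DESeq2 called 0 of the 85 (background 0.0352 percent), with 3 at an unadjusted p of 0.05 (background 4.41 percent). With single rats left out the edgeR count at an unadjusted p of 0.05 went from 0 (without rat H, background 2.46 percent) to 7 (without rat B, background 2.48 percent). With the neuronal marker level in the fit it was 9, 1 higher and 8 lower (background 2.23 and 3.65 percent). A positive log2 difference was seen for 33 of the 85, against 50.1 percent of all genes, and the median was -0.08 against 0.00 over all genes.

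The 2 genes were Kcnk2 and Kcng2, a silent subunit. Kcnk2 stood at 22.4 CPM in rat A, 27.3 in rat B and 27.9 in rat E on the control side at 6 weeks. On the surgical side of the same rats it stood at 22.2 CPM in rat A, 13.4 in rat B and 21.7 in rat E, below each of the 3 control values. The 8-week control values were 14.6 CPM in rat C, 16.3 in rat D, 17.3 in rat G and 38.4 in rat H, and the surgical ones 11.8 CPM in rat C, 16.6 in rat D, 12.3 in rat G and 20.9 in rat H. The surgical library was the higher one in rat D alone, by a small margin, and the groups overlapped at 8 weeks. Over both times edgeR gave a log2 difference of -0.43 (SE 0.15), with an unadjusted p of 0.0204 and an adjusted p of 1. Kcng2 stood at 4.05 CPM in rat A, 3.74 in rat B and 7.61 in rat E on the control side at 6 weeks. On the surgical side it stood at 2.72 CPM in rat A, 3.42 in rat B and 8.04 in rat E, and the groups overlapped. At 8 weeks the 4 control libraries, with 10.7 CPM in rat C, 10.8 in rat D, 18.3 in rat G and 10.1 in rat H, were all above the 4 surgical ones, with 7.17 CPM in rat C, 7.44 in rat D, 4.85 in rat G and 7.09 in rat H. The surgical library of Kcng2 was the higher one in rat E alone. Over both times it had a log2 difference of -0.59 (SE 0.23), with an unadjusted p of 0.0322 and an adjusted p of 1 in edgeR.

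By role, the auxiliary subunits of voltage-gated channels leaned furthest to the control side over both times, with 1 of 11 positive and a median of -0.33, and all 4 Kcnip genes were negative (median -0.45). Kcnip2, the member of that group with the smallest p, had a log2 difference of -0.52 (SE 0.27); in 1 of the 7 rats its surgical library was the higher one. The voltage-gated pores had 6 of 15 positive (median -0.08), the M-current and EAG-type genes (Kcnq and Kcnh) 5 of 11 (-0.01), the silent subunits 3 of 9 (-0.17), the calcium- or sodium-activated channels 3 of 10 (-0.12), the inward rectifiers 9 of 15 (0.06) and the leak channels 6 of 14 (-0.07). Kcnj13, a low-conductance inward rectifier, had a log2 difference of -1.14 (SE 0.55) with its highest library, control of rat H, at 8.12 CPM and all others at or below 4.44. Kcnj4 completed the 5 genes of smallest p with a log2 difference of -0.49 (SE 0.24). In the direction of the difference within rats, 1 gene, Kcnh4, was higher on the surgical side in all 7 rats (background 0.458 percent) and none was lower in all 7 (background 0.746 percent). Kcnh4 was scarce, with a highest count of 19 in any library and a log2 difference of 0.89 (SE 0.47).

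The direction of the family's difference was not shared between rats. The median over the 85 genes of the surgical minus the control side, in log2 CPM, was -0.99 in rat A, 1.23 in rat B and 0.13 in rat E at 6 weeks, and -0.97 in rat C, -0.04 in rat D, -0.35 in rat G and 0.12 in rat H at 8 weeks. The neuronal marker mean differed in the same direction in rat A (-1.72), rat B (1.53), rat C (-0.89), rat D (-0.03), rat G (-0.19) and rat H (0.76), and in rat E it was -0.03. In rat B 66 of the 85 genes were higher on the surgical side, and in rat C 16 were. Spinal cord markers were higher on the surgical side of rat B by 5.06 log2 CPM, and muscle markers on the surgical side of rat C by 8.85, of rat E by 4.57, and on the control side of rat H by 6.66 (surgical minus control -6.66). Their part in the differences was not tested. Without rats B, C and H the median was -0.25 over both times, -0.31 at 6 weeks and -0.13 at 8 weeks. For the 8-week side difference less the 6-week one it was 0.08. Rat E, with more muscle markers on its surgical side, stayed in these fits.

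**Figure D3:**
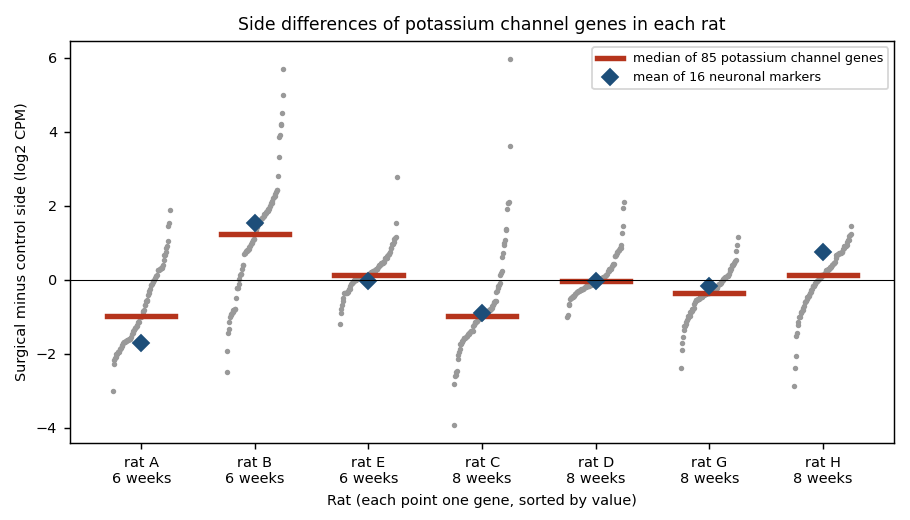
Surgical minus control side in log2 CPM for the 85 potassium channel genes in each rat (points), with their median (red bar) and the difference of the neuronal marker mean (blue diamond). The medians of rat A (-0.99), rat B (1.23) and rat C (-0.97) stand furthest from 0, each on the same side of 0 as the neuronal marker difference.

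At 6 weeks 0 of the 85 genes passed the test between the sides in edgeR (background 0 percent) or DESeq2 (background 0.258 percent). An unadjusted p of 0.05 was reached by 2 genes in edgeR, both higher on the surgical side (background 3.21 percent, 1.09 percent higher and 2.11 percent lower), and by 4 in DESeq2 (background 4.91 percent). With single rats left out the edgeR count went from 0 (without rat G, background 2.08 percent) to 12 (without rat A, background 5.8 percent), and with the neuronal marker level in the fit it was 22, 16 higher and 6 lower (background 6.15 and 6.12 percent). Positive differences were seen for 52 of the 85 (background 49 percent), with a median of 0.12 against -0.01 over all genes. The voltage-gated pores (12 of 15 positive, median 0.29), the Kcnq and Kcnh genes (9 of 11, 0.34) and the inward rectifiers (11 of 15, 0.18) were mostly positive, and the auxiliary subunits (4 of 11, -0.20) and silent subunits (4 of 9, -0.19) mostly negative. The calcium- or sodium-activated channels had 6 of 10 positive (0.14) and the leak channels 6 of 14 (-0.04). This median turned with single rats, to 0.75 without rat A and -0.32 without rat B.

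The 2 genes at 6 weeks were Kcng4, a silent subunit, and Kcnk3, an acid-sensitive leak channel. Kcng4 had 0.222 CPM in rat A, 0.950 in rat B and 0.520 in rat E on the control side. On the surgical side it had 0.435 CPM in rat A, 32.9 in rat B and 1.15 in rat E, so that the library of rat B alone stood far above the others (log2 difference 2.58, SE 1.07, unadjusted p = 0.0446, adjusted p = 0.999, edgeR). Without rat B the difference was 1.06 (SE 0.85). The control values of Kcnk3 were 2.50 CPM in rat A, 2.51 in rat B and 4.02 in rat E. Its surgical values were 2.99 CPM in rat A, 8.21 in rat B and 8.72 in rat E (log2 difference 1.04, SE 0.43, unadjusted p = 0.0449, adjusted p = 0.999, edgeR). The surgical library was higher in each of the 3 rats, though rat A's lay within the range of the control group. Kcnk9, an acid-sensitive relative of Kcnk3, had a difference of 2.77 (SE 1.21) that was 0.99 (SE 0.71) without rat B. Kcnn3, a small-conductance calcium-activated channel gene, had 1.61 CPM in rat A, 1.01 in rat B and 3.64 in rat E on the control side. On the surgical side it had 1.74 CPM in rat A, 3.47 in rat B and 6.16 in rat E, higher in each rat though the groups overlapped. The log2 difference of Kcnn3 was 0.88 (SE 0.38), and 0.45 (SE 0.37) without rat B. Kcnk2, given above, had -0.47 (SE 0.25).

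At 8 weeks the comparison of the sides again gave 0 of 85 in edgeR (background 0 percent) and DESeq2 (background 0.0235 percent). In edgeR 4 genes reached an unadjusted p of 0.05, 1 higher and 3 lower on the surgical side (background 1.06 percent, 0.481 percent higher and 0.575 percent lower), and 8 did in DESeq2 (background 2.07 percent). With single rats left out the edgeR count went from 1 (without rat C, background 0.763 percent) to 10 (without rat A, background 1.49 percent), and with the neuronal marker level in the fit it was 15, 1 higher and 14 lower (background 0.951 and 2.27 percent). Only 21 of the 85 differences were positive (background 51 percent), and the median was -0.23 against 0.01 over all genes. The lean was seen in most roles: 2 of 15 voltage-gated pores were positive (median -0.27), 2 of 11 Kcnq and Kcnh genes (-0.21), 1 of 9 silent subunits (-0.23), 1 of 11 auxiliary subunits (-0.40) and 2 of 10 calcium- or sodium-activated channels (-0.29). Inward rectifiers (6 of 15, -0.14) and leak channels (7 of 14, -0.04) were closer to balance. The median was -0.07 without rat C and -0.45 without rat H. Muscle markers were high in the surgical library of rat C and in the control library of rat H. The neuronal marker mean was lower on the surgical side of rat C (-0.89) and higher on that of rat H (0.76). The part of either in these medians was not tested.

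Kcng2 had the smallest p at 8 weeks (log2 difference -0.88, SE 0.28, unadjusted p = 0.016, adjusted p = 1, edgeR). Its control libraries, given above, did not overlap the surgical ones, and the widest gap was in rat G; without rat G the difference was -0.54 (SE 0.23). Kcnmb1, an auxiliary subunit known from smooth muscle, had 2.14 CPM in rat C, 0.717 in rat D, 2.61 in rat G and 1.47 in rat H on the control side. On the surgical side it had 0.228 CPM in rat C, 0.989 in rat D, 0.430 in rat G and 0.489 in rat H (log2 difference -1.71, SE 0.61, unadjusted p = 0.0249, adjusted p = 1, edgeR). It was lower on the surgical side in rats C, G and H and higher in rat D, at levels of at most 2.61 CPM. Kcnj4, a strong inward rectifier, had 2.75 CPM in rat C, 2.94 in rat D, 3.14 in rat G and 0.715 in rat H on the control side. Its surgical values were 1.28 CPM in rat C, 2.11 in rat D, 1.76 in rat G and 0.448 in rat H, lower in each of the 4 rats, and the groups overlapped through the low rat H (log2 difference -0.77, SE 0.29, unadjusted p = 0.0287, adjusted p = 1, edgeR). Kcnip4 completed the 5 with 28.0 CPM in rat C, 21.6 in rat D, 33.1 in rat G and 26.3 in rat H on the control side. Its surgical values were 8.36 CPM in rat C, 15.5 in rat D, 13.9 in rat G and 17.5 in rat H. Every surgical library of Kcnip4 lay below every control library (log2 difference -1.01, SE 0.45). The share of all genes whose sides did not overlap at 8 weeks was not counted, so such statements on single genes have no background here.

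The gene that leaned the other way was Kcnj15, an inward rectifier better known from kidney and stomach epithelium. Its 8-week control libraries had 2.01 CPM in rat C, 1.23 in rat D, 1.45 in rat G and 1.18 in rat H. The surgical ones had 7.86 CPM in rat C, 2.45 in rat D, 2.11 in rat G and 2.16 in rat H (log2 difference 1.10, SE 0.43, unadjusted p = 0.0349, adjusted p = 1, edgeR). All 4 surgical libraries were above all 4 control ones, and rat C stood apart; without it the difference was 0.80 (SE 0.46). At 6 weeks the same gene had 4.67 CPM in rat A, 4.75 in rat B and 3.59 in rat E on the control side. The surgical values were 5.87 CPM in rat A, 1.17 in rat B and 2.77 in rat E, higher in rat A and lower in rats B and E.

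Channels best known from sensory neurons and their glia were described in the same way. Kcna2 had 139.5 CPM in rat A, 59.1 in rat B and 289.8 in rat E on the control side at 6 weeks, and 76.3 CPM in rat A, 297 in rat B and 332 in rat E on the surgical side. At 8 weeks its control values were 416 CPM in rat C, 356 in rat D, 352 in rat G and 219.8 in rat H. The surgical values were then 145 CPM in rat C, 314 in rat D, 332 in rat G and 416 in rat H. Rats A, C, D and G were lower and rats B, E and H higher on the surgical side (log2 difference 0.08, SE 0.42 over both times). Kcnc4 had 232 CPM in rat C, 165 in rat D, 305 in rat G and 165 in rat H on the control side at 8 weeks. On the surgical side it had 119 CPM in rat C, 122 in rat D, 104 in rat G and 147 in rat H, lower in each of the 4 rats and without overlap (log2 difference -0.78, SE 0.60, unadjusted p = 0.235, edgeR). For Kcnd3 the control values were 94.0 CPM in rat C, 60.4 in rat D, 99.9 in rat G and 64.5 in rat H. The surgical values were 29.3 CPM in rat C, 50.2 in rat D, 45.1 in rat G and 57.8 in rat H, also without overlap (log2 difference -0.81, SE 0.40, unadjusted p = 0.0795, edgeR). At 6 weeks the same genes had positive values, 0.37 (SE 0.80) and 0.38 (SE 0.47). For Kcnq5, Kcnk18 and Kcnt1 the 8-week values were -0.48 (SE 0.61), -0.49 (SE 0.40) and -0.51 (SE 0.43), none at an unadjusted p of 0.05. Kcnj10 of satellite glia had a log2 difference of 0.35 (SE 0.75) at 6 weeks and -0.25 (SE 0.60) at 8 weeks.

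**Figure D4:**
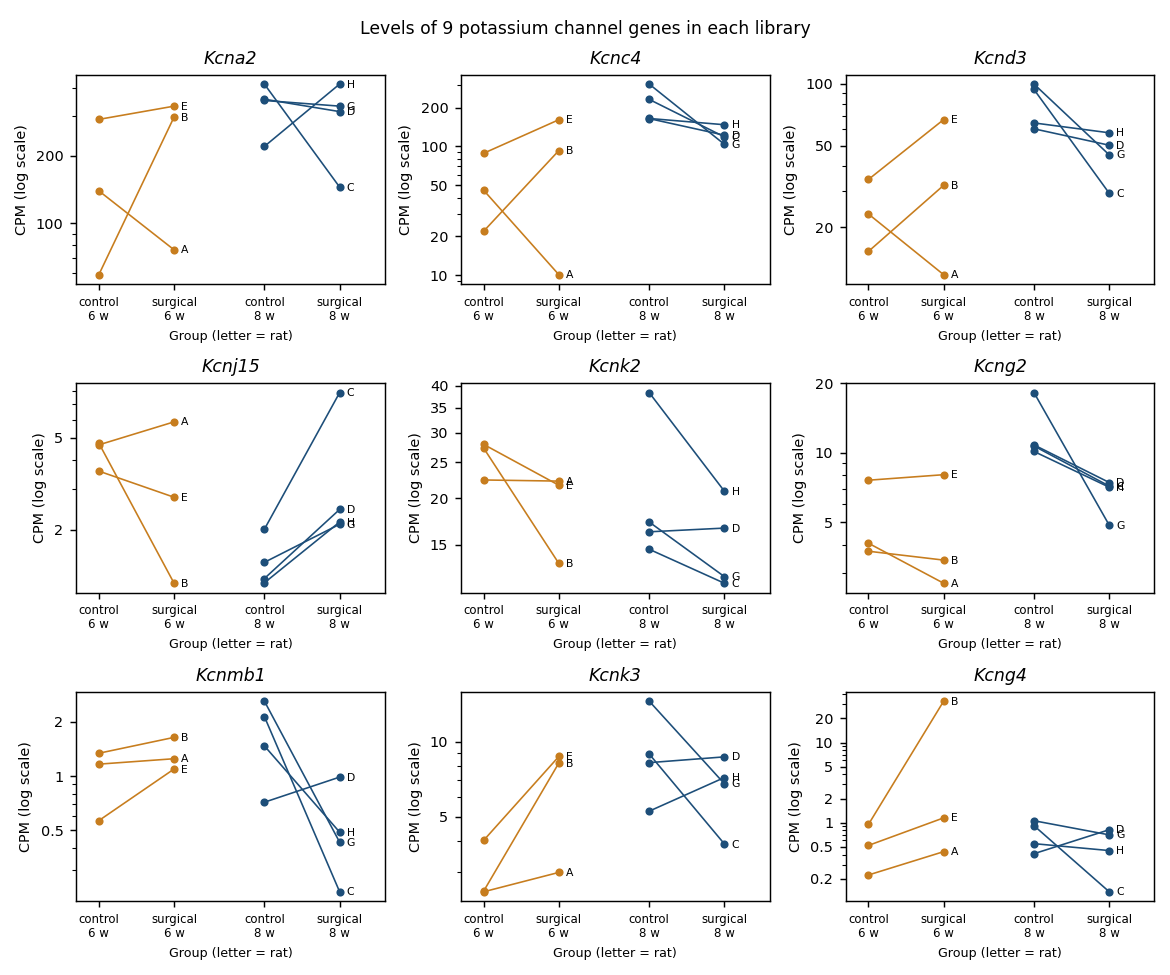
CPM (vertical, log axis) of Kcna2, Kcnc4, Kcnd3, Kcnj15, Kcnk2, Kcng2, Kcnmb1, Kcnk3 and Kcng4 in each library by side and time, with lines joining the sides of a rat. For Kcng4 the surgical library of rat B (32.9 CPM) stands above all others, and for Kcnd3 and Kcnc4 all 8-week control libraries lie above the 6-week ones.

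The difference between the side differences at 8 and at 6 weeks was tested as an interaction, and 0 of the 85 genes passed in edgeR (background 0 percent) or DESeq2 (background 0.0294 percent). An unadjusted p of 0.05 was reached by 4 genes in edgeR, 1 with a higher and 3 with a lower difference at 8 weeks (background 1.48 percent, 0.839 percent higher and 0.64 percent lower), and by 7 in DESeq2 (background 2.58 percent). The 4 were Kcnj15 (log2 difference 1.75, SE 0.66), Kcnk3 (log2 difference -1.48, SE 0.57), Kcnk9 (log2 difference -3.82, SE 1.47) and Kcnmb1 (log2 difference -2.14, SE 0.89), and Kcng4 followed with a log2 difference of -3.11 (SE 1.34). A positive interaction was seen for 20 of the 85 (background 54.7 percent), and the median was -0.49 against 0.05 over all genes. The edgeR count was 21 without rat A (background 4.35 percent), 0 without rat B (background 1.31 percent), and 23 with the neuronal marker level in the fit, 3 higher and 20 lower (background 3.42 and 4.98 percent). The lean moved with the same rats: the median was -1.06 without rat A and 0.07 without rat B.

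The control ganglia at 8 weeks were then compared with those at 6 weeks, in different rats. It gave the family's largest median: 66 of 82 genes tested were higher at 8 weeks, against 46.5 percent of all 16346 genes, with a median log2 difference of 0.90 against -0.06 over all genes. In edgeR 0 of the 82 passed an adjusted p of 0.05, as did 0.153 percent of all genes (0.0184 percent higher and 0.135 percent lower), and the smallest adjusted p among them was 0.0785. An unadjusted p of 0.05 was reached by 42 of the 82, 36 higher and 6 lower, where 31.2 percent of all genes did, 13.9 percent higher and 17.4 percent lower. DESeq2 at an adjusted p of 0.05 called 30 of them, 29 higher and 1 lower (background 19.2 percent, 9.57 percent higher and 9.59 percent lower). At the same threshold limma on log2(TPM + 1) called 33 of the 76 it tested, all higher (background 18.9 percent, both directions together). Of DESeq2's 30, limma also called 27. The adjusted p-values of limma's 33 genes all lay just under the threshold, at 0.0495 to 0.0499. On the log2(TPM + 1) scale the median of all genes was itself 0.44 higher at 8 weeks, so the limma count is not centred as the count-based fits are. With log2(TPM + 0.1) limma called 0 of the 76 (background 0.086 percent). Libraries of the times did not overlap for 28 genes that were higher at 8 weeks (background 12.2 percent) and for Kcnj8 and Kcnj15, which were lower (background 12.7 percent). The 8-week control libraries also had the higher mean of the 16 neuronal markers, 8.98 (SD 0.35, n = 4) against 7.81 (SD 1.07, n = 3) log2 CPM, the lower mean of the Schwann cell markers, 7.21 against 8.26, the lower mean of 8 macrophage markers, 4.25 against 5.39, and 5 red blood cell markers summing to 9813 to 39775 CPM against 14142 to 95323 CPM.

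All 15 voltage-gated pore genes were higher at 8 weeks on the control side (median 0.98), 7 of them at an unadjusted p of 0.05. Over all genes 13.9 percent were higher and 17.4 percent lower at that p, which is the background for the other roles below too. Kcnd3 (ENSRNOG00000014686) had 23.2 CPM in rat A, 15.2 in rat B and 34.2 in rat E at 6 weeks. At 8 weeks it had 94.0 CPM in rat C, 60.4 in rat D, 99.9 in rat G and 64.5 in rat H, without overlap (log2 difference 1.71, SE 0.32, adjusted p = 0.0785 in edgeR and 3.15e-05 in DESeq2). Kcnc4 (ENSRNOG00000060988) had 45.7 CPM in rat A, 21.9 in rat B and 88.5 in rat E at 6 weeks. Its 8-week values were 232 CPM in rat C, 165 in rat D, 305 in rat G and 165 in rat H, the lowest of them above the highest 6-week one (log2 difference 2.05, SE 0.48, adjusted p = 0.0888 in edgeR and 0.000506 in DESeq2). The juxtaparanodal pair was less separated. Kcna1 had 219.9 CPM in rat A, 115 in rat B and 430.1 in rat E at 6 weeks. It had 547 CPM in rat C, 519 in rat D, 459.7 in rat G and 310.0 in rat H at 8 weeks, with rat E above rat H (log2 difference 0.84, SE 0.43). Kcna2, given above, also overlapped through rats E and H (log2 difference 1.04, SE 0.50). Kcna4, an A-type member of the Kcna group, had a log2 difference of 0.92 (SE 0.29), Kcna6 1.43 (SE 0.43), Kcnc1 1.30 (SE 0.52) and Kcnd1 1.14 (SE 0.46).

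Of the Kcnq and Kcnh genes 9 of 10 were higher (median 1.41), 6 at an unadjusted p of 0.05. Kcnq3, the M-current subunit, had 2.83 CPM in rat A, 0.670 in rat B and 7.42 in rat E at 6 weeks. At 8 weeks it had 16.3 CPM in rat C, 11.4 in rat D, 14.6 in rat G and 7.99 in rat H (log2 difference 1.77, SE 0.68). The values of Kcnq5 were 19.4 CPM in rat A, 5.64 in rat B and 33.3 in rat E at 6 weeks and 77.8 CPM in rat C, 45.4 in rat D, 71.0 in rat G and 42.4 in rat H at 8 weeks (log2 difference 1.60, SE 0.55). In both genes rat B at 6 weeks was the lowest control library and rat C at 8 weeks the highest, and the times did not overlap. Kcnq1, a subunit of heart and epithelia, had a log2 difference of -0.24 (SE 0.56). Kcnh6 had a log2 difference of 1.93 (SE 0.57), Kcnh1 1.46 (SE 0.56), Kcnh5 1.36 (SE 0.45), Kcnh7 1.29 (SE 0.66) and Kcnh2 1.11 (SE 0.53).

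Silent subunits were higher in 8 of 9 cases (median 0.83), 4 at an unadjusted p of 0.05. Kcnf1 had 3.89 CPM in rat A, 2.51 in rat B and 9.83 in rat E at 6 weeks. The 8-week values were 19.2 CPM in rat C, 15.9 in rat D, 26.0 in rat G and 16.6 in rat H, without overlap (log2 difference 1.83, SE 0.47). The differences of Kcng1, Kcng2 and Kcng3 were 1.53 (SE 0.49), 1.27 (SE 0.34) and 1.04 (SE 0.42). The more abundant Kcns1 and Kcns3 had 0.63 (SE 0.60) and 0.83 (SE 0.42). The auxiliary subunits had 8 of 10 higher (median 0.75) and 5 at an unadjusted p of 0.05. Kcnab2 had 94.9 CPM in rat A, 38.0 in rat B and 196 in rat E at 6 weeks. It had 266 CPM in rat C, 283 in rat D, 357 in rat G and 194 in rat H at 8 weeks, with rat H just below rat E (log2 difference 1.32, SE 0.51). Its relative Kcnab1 had 0.68 (SE 0.28). All 4 Kcnip genes were higher, from 0.82 (SE 0.47) for Kcnip3 to 1.40 (SE 0.48) for Kcnip4. Kcne2 (-0.38, SE 0.45) and Kcne4 (-0.28, SE 0.28) were the 2 genes of this group with negative values.

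Calcium- or sodium-activated channels were higher in 8 of 10 cases (median 0.97), 5 at an unadjusted p of 0.05. Kcnma1, the large-conductance pore, had 5.39 CPM in rat A, 2.96 in rat B and 13.3 in rat E at 6 weeks. At 8 weeks it had 22.9 CPM in rat C, 17.0 in rat D, 21.6 in rat G and 15.4 in rat H, without overlap (log2 difference 1.41, SE 0.48). Kcnt1 had a log2 difference of 1.36 (SE 0.42), its relative Kcnt2 0.60 (SE 0.49) and Kcnmb2 1.27 (SE 0.38). Kcnmb4 (-0.39, SE 0.21) and Kcnn4 (-0.98, SE 0.59) were negative, whereas the small-conductance genes Kcnn1, Kcnn2 and Kcnn3 were positive at 1.19 (SE 0.43), 1.02 (SE 0.35) and 0.92 (SE 0.46).

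The inward rectifiers were divided, with 10 of 15 higher (median 0.30), 5 of them and 2 lower ones at an unadjusted p of 0.05 (background 13.9 percent higher and 17.4 percent lower). Kcnj5 (ENSRNOG00000033796), a G-protein-gated rectifier, had 3.00 CPM in rat A, 2.63 in rat B and 2.46 in rat E at 6 weeks. The 8-week values were 6.38 CPM in rat C, 4.30 in rat D, 8.07 in rat G and 7.11 in rat H, all higher (log2 difference 1.25, SE 0.27, adjusted p = 0.0843 in edgeR and 0.00065 in DESeq2). Its G-protein-gated relatives Kcnj6 and Kcnj3 had 1.30 (SE 0.34) and 0.92 (SE 0.50). The ATP-sensitive pores went in opposite directions, Kcnj11 with a log2 difference of 1.25 (SE 0.38) and Kcnj8, known from vascular mural cells, with -0.86 (SE 0.30). Kcnj15 (ENSRNOG00000062944) had 4.67 CPM in rat A, 4.75 in rat B and 3.59 in rat E at 6 weeks. Its 8-week values, given above, were all lower (log2 difference -1.57, SE 0.28, adjusted p = 0.0785 in edgeR and 4.06e-05 in DESeq2). Kcnj10 of satellite glia had 52.0 CPM in rat A, 34.0 in rat B and 92.9 in rat E at 6 weeks. At 8 weeks it had 73.7 CPM in rat C, 84.4 in rat D, 77.7 in rat G and 58.5 in rat H, and the times overlapped through rat E (log2 difference 0.30, SE 0.32).

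Leak channels were the other divided group, with 8 of 13 higher (median 0.20) and 4 in each direction at an unadjusted p of 0.05 (background 13.9 percent higher and 17.4 percent lower). Kcnk3 (ENSRNOG00000009790) stood, as given above, at 2.50 to 4.02 CPM at 6 weeks. At 8 weeks it had 8.92 CPM in rat C, 8.23 in rat D, 14.5 in rat G and 5.26 in rat H, without overlap (log2 difference 1.61, SE 0.38, adjusted p = 0.0907 in edgeR and 0.00181 in DESeq2). Kcnk18 had 1.50 CPM in rat A, 0.559 in rat B and 4.49 in rat E at 6 weeks. It had 7.34 CPM in rat C, 5.84 in rat D, 10.6 in rat G and 5.72 in rat H at 8 weeks, without overlap (log2 difference 1.74, SE 0.63). Kcnk12 had a log2 difference of 0.89 (SE 0.32) and the scarce Kcnk9 had 1.78 (SE 0.60). Kcnk9 passed the filter on low counts here through its 8-week libraries, to which its direction is tied. Its place among the higher genes and among those without overlap is therefore a description. Lower at 8 weeks were Kcnk13 (-1.10, SE 0.43), Kcnk5 (-1.06, SE 0.39), Kcnk6 (-0.90, SE 0.37) and Kcnk16 (-1.49, SE 0.61). The most abundant leak genes had small values, Kcnk1 with 0.20 (SE 0.23) and Kcnk2 with -0.26 (SE 0.35). Kcnk4 and Kcnk10, mechano- and temperature-sensitive relatives of Kcnk2, had 0.93 (SE 0.47) and 0.75 (SE 0.46).

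When the neuronal marker level was added to the edgeR fit, the control-side median over the 82 genes was 0.18 in place of 0.90, and 52 values were positive. Then 15 reached an unadjusted p of 0.05, 10 higher and 5 lower, against 3.97 percent of all genes higher and 6.44 percent lower, and 0 passed an adjusted p of 0.05. The higher genes included Kcna6, Kcnc4, Kcnd3, Kcnf1, Kcng1, Kcnh6, Kcnj5, Kcnj12 and Kcnt1, and the 5 lower ones Kcnj10, Kcnj15, Kcnk16, Kcns1 and Kcnv1. Kcnd3 then had 1.13 (SE 0.25), Kcnc4 1.15 (SE 0.26), Kcnj5 1.33 (SE 0.38) and Kcnj15 -1.40 (SE 0.37). Leaving out single rats moved the count at an unadjusted p of 0.05 from 12 (without rat A, background 17.1 percent) to 59 (without rat E, background 51.6 percent) in the fit with time alone. It moved the median from 0.64 without rat B to 1.49 without rat E, and without rat E, the 6-week control library richest in neuronal markers, edgeR called 52 genes, 48 higher and 4 lower (background 23.2 percent higher and 15.2 percent lower). Without rats B, C and H the median was 0.70.

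**Figure D5:**
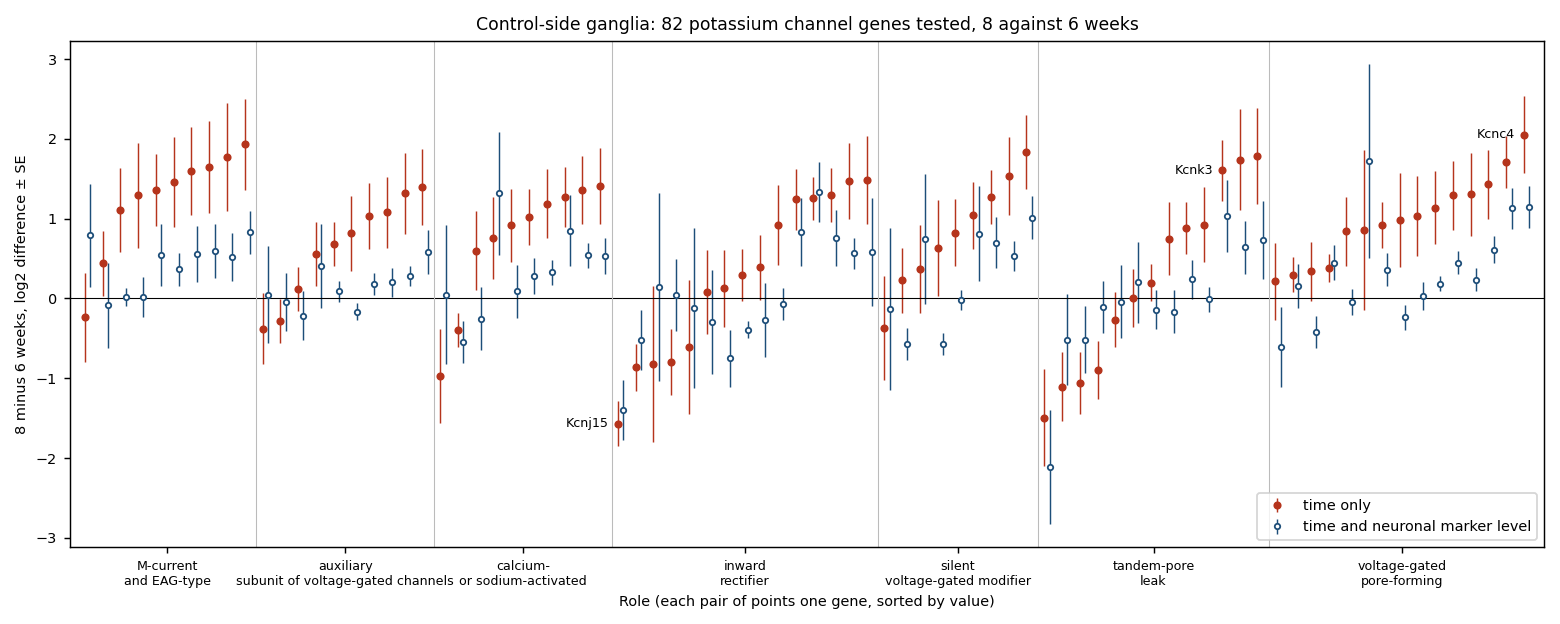
Difference between 8 and 6 weeks on the control side (vertical, log2 with its SE) for the 82 genes tested, grouped by role and sorted by value within a role (horizontal), from the fit with time alone (filled) and with the neuronal marker level as well (open). The filled points have a median of 0.90 and the open ones of 0.18, and Kcnj15 stays low in both at -1.57 and -1.40.

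The surgical side compared between the same times gave 0 of 86 genes in edgeR (background 0 percent) and DESeq2 (background 0.0482 percent), with the smallest adjusted p in edgeR at 0.671. At an unadjusted p of 0.05 there were 7 genes in edgeR, 1 higher and 6 lower at 8 weeks (background 6.56 percent, 1.68 percent higher and 4.88 percent lower), and 7 in DESeq2 (background 10.8 percent). With single rats left out the edgeR count went from 2 (without rat G, background 2.99 percent) to 21 (without rat E, background 13.2 percent). Positive differences numbered 53 of 86 (background 50.5 percent), with a median of 0.28 against 0.01 over all genes. The direction turned with the neuronal marker level in the fit, where 22 of 86 were positive (background 49.9 percent), the median was -0.25, and 17 genes reached an unadjusted p of 0.05, 1 higher and 16 lower (background 1.4 and 3.63 percent). Without rat A the median was 0.06, and without rat E 0.69. In the fit with time alone the Kcnq and Kcnh genes were mostly positive (10 of 11, median 0.74), as were the silent subunits (7 of 10, 0.51), the calcium- or sodium-activated channels (8 of 10, 0.37), the auxiliary subunits (7 of 11, 0.37) and the voltage-gated pores (9 of 15, 0.36). Inward rectifiers (6 of 15, -0.41) and leak channels (6 of 14, -0.10) were not. Libraries of the times did not overlap for 1 gene that was higher (background 5.12 percent) and 3 that were lower (background 5.12 percent).

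Kcnk12, a leak channel gene, was the 1 higher, with 7.66 CPM in rat A, 11.2 in rat B and 14.1 in rat E at 6 weeks. Its 8-week values were 16.9 CPM in rat C, 19.9 in rat D, 18.5 in rat G and 17.5 in rat H, all higher (log2 difference 0.72, SE 0.24, unadjusted p = 0.02, edgeR). Kcns2, a silent subunit, had 0.489 CPM in rat A, 1.41 in rat B and 0.940 in rat E at 6 weeks. It had 0.228 CPM in rat C, 0.344 in rat D, 0.235 in rat G and 0.163 in rat H at 8 weeks, lower in every later library. Kcns2 passed the filter on low counts here only through its 6-week libraries, which fixes the direction, so its place among the 6 lower genes is a description. The other lower genes were Kcng4 (-4.42, SE 1.44), Kcnab3 (-3.14, SE 1.13), Kcnk9 (-2.89, SE 1.09), Kcnmb1 (-1.30, SE 0.52) and Kcnj16 (-2.66, SE 1.10). Without rat B the first 3 of these had -0.63 (SE 0.75), -0.12 (SE 0.42) and -0.49 (SE 0.73). The surgical values of Kcnd3 at 6 weeks were 11.7 CPM in rat A, 32.0 in rat B and 67.0 in rat E, and those of Kcnc4 10.1 CPM in rat A, 92.9 in rat B and 161 in rat E. Both overlapped their 8-week values, given above, on this side (log2 differences 0.30, SE 0.54, and 0.48, SE 0.74). Surgical and control sides of the same rats enter these comparisons, and the difference between the sides in the change with time is the interaction given above. The neuronal marker mean on the surgical side was 7.74 (SD 1.44, n = 3) at 6 weeks and 8.89 (SD 0.50, n = 4) at 8 weeks.

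For some genes a single library stood far above the rest. In the surgical library of rat B, where spinal cord markers were high, 6 genes stood at over 2 times the highest of the other 13 libraries: Kcng4 at 32.9 against 1.15 CPM, Kcnab3 at 22.8 against 1.94, Kcnk9 at 7.41 against 0.846, Kcnd2 at 14.5 against 2.11, Kcnj14 at 17.3 against 5.12 and Kcnj9 at 6.76 against 3.17. Kcnj10 was also highest there, at 185 against 95.9 CPM. In the surgical library of rat C, where muscle markers were high, 3 did: Kcna7, a channel gene known from muscle, at 24.6 against 3.24 CPM, Kcnj11, the ATP-sensitive pore also known from muscle, at 42.3 against 17.3, and Kcnn4 at 124.8 against 60.7. Macrophage markers (519 CPM) and red blood cell markers (83991 CPM) were also highest there among the 8-week libraries. The part of spinal cord, muscle, macrophage or red blood cell RNA in these values was not tested. At the other end, the surgical library of rat A was the lowest of all 14 for 41 of the 85 genes, the control library of rat B for 15 and the surgical library of rat C for 11. The control library of rat G was the highest for 30 genes and the surgical library of rat B for 14.

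A list of 31 genes of channel partners, scaffolds and regulators, among them the transcriptional and chromatin regulators Rest, Ehmt2 and Dnmt3a (32 rows, since Calm2 has 2, of which 30 were tested between the sides) gave 0 called in edgeR in every comparison. Over all genes edgeR called 0.153 percent between the times on the control side and 0 percent in every other comparison. On the control side 23 of the list's 30 rows had positive 8-week differences (46.5 percent of all genes did), with a median of 0.73. Of these 11 reached an unadjusted p of 0.05, as did 1 lower gene (13.9 percent higher and 17.4 percent lower over all genes). Cntn2 and Adam22, which take part in the Kcna complex at the juxtaparanodes, had 1.71 (SE 0.59) and 1.60 (SE 0.58). Lgi1, the secreted ligand of Adam22, had 1.14 (SE 0.28), the Kcnd partners Dpp6 and Dpp10 had 1.42 (SE 0.54) and 1.16 (SE 0.42), and Abcc8, the sulfonylurea receptor that partners Kcnj11, had 1.58 (SE 0.51). Lrrc55, an auxiliary protein of Kcnma1 channels, had 1.55 (SE 0.47), and the ubiquitin ligase Nedd4l, a regulator of Kcnq channels, had 1.07 (SE 0.20). The scaffold gene Dlg1 was the lower one with -0.78 (SE 0.27), and on the surgical side it had -0.67 (SE 0.22). Between the sides the list's median was -0.01 over both times, 0.08 at 6 weeks and -0.09 at 8 weeks, where 8 of 30 were positive (background 51 percent).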

How the data were processed

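RNA libraries of dorsal root ganglia from 7 rats, a control and a surgical side of each, were read from 2 gene tables. Per the labels' protocols libraries were made with ribosomal depletion, and the labels also name the molecule as polyA RNA. The authors deposited estimated counts, which held 0 values that were not whole, and TPM from the same quantification. Per the submitters' processing notes FastQC, Trim Galore, Salmon and DESeq2 were used; versions and genome build are not given in the sources used here.

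Group, rat and time came from the sample titles; letters C and D are exchanged between titles and library names in the labels, and the title letters were used. The surgical library of rat C is numbered replicate 1 in its title and was used as replicate 2. The pairing of the sides is by rat, also from the titles.

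The counts entered edgeR 4.0.16 under R 4.3.3 (TMM, filterByExpr with a minimum count of 10, robust quasi-likelihood test, Benjamini-Hochberg over all genes tested, threshold 0.05), with a term for each rat between the sides (6 residual degrees of freedom over both times, 5 at each time) and 7 libraries for each comparison of the times (5 degrees of freedom). The SE is the log2 difference divided by the square root of F. CPM were scaled by TMM and given a prior count of 2 only on the log2 scale. The fitting code was run on simulated counts with known changes. These had the same spread for every gene and no differences between rats or in cell types. The simulation therefore checks the code and does not bear on libraries that differ as these do. The results were recomputed with DESeq2 1.42.0, with DESeq2's size factors inside edgeR, without the filter, with a filter of 1 CPM in 3 libraries, with limma 3.58.1 on log2(TPM + 1) and log2(TPM + 0.1) for genes reaching 0.5 TPM, with the length trend removed, with the neuronal marker mean as a term, without the rat term, and without each rat or rats B, C and H together.

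Genes were named as the 5 of smallest p in each comparison, the most abundant of each subfamily, those with the same direction in all 7 rats, and a list with known roles in sensory neurons or glia. Members and lists were chosen with earlier results of these data known, and the counts of directions and medians are descriptions without a test. Each rat is 1 animal. Between the sides, p-values measure how the side difference varies from rat to rat. Between the times, they measure the spread of levels between animals. Depth per library was 18489118 to 28237574 counts. Strand setting of the counting is not given in the sources used here, so reads of antisense or overlapping genes cannot be separated. Some genes of the family are not reported by name here.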

Additional observations from a re-analysis of the deposited data

Results flagged for a closer look

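Among 55 sets of values in groups of 4 or of 7, over 18 potassium channel genes, 8 held a single library or rat far from the others. Chance flags about 1 in 20 independent sets, a rate that does not apply here: the genes were named partly for small p-values, and the sets share libraries (Kcng2 in rat G enters 3 of the 8). In log2 CPM, Kcng2 was far above the other 8-week control libraries in rat G (4.20) and far below the other 8-week surgical libraries in the same rat (2.30), and its difference between the sides in rat G (-1.89) stood apart from the other 6 rats. Kcnj15 was far above the other 8-week surgical libraries in rat C (2.99), and Kcnn3 far below them in rat C (0.94). That library had high muscle, macrophage and red blood cell markers. Kcnj4 was far below the other 8-week control libraries in rat H (-0.31). The differences between the sides of Kcnab3 (4.18) and Kcnk9 (5.70) in rat B, whose surgical library had high spinal cord markers, stood apart from those of the other rats. The part of muscle, macrophage, red blood cell or spinal cord RNA in these values was not tested.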

How the results depend on the processing

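The rat was used as the replicate block in all comparisons of the sides; without it 0 potassium channel genes were called in the 4 comparisons it enters, as with it, and their medians were 0.01 over both times, 0.27 at 6 weeks, -0.18 at 8 weeks and -0.50 for the interaction. The 0 genes called between the times on the control side became 30 with DESeq2, 33 with limma on log2(TPM + 1), and 0 to 52 with single rats left out (52 without rat E). With limma on log2(TPM + 0.1) they stayed at 0. The cause was not tested. No other comparison had a potassium channel gene called under any alternative. Of 481 values of 30 single-gene results under the alternatives, 466 kept their direction and side of the threshold, 14 on the control side passed it, and 1 turned: Kcnk9 on the surgical side between the times, -2.89, was 0.0167 without rats B, C and H and -0.49 without rat B. The medians over the genes turned or moved with single rats: over both times from -0.31 without rat B to 0.09 without rat A, at 6 weeks from -0.32 to 0.75 without the same rats, at 8 weeks from -0.45 without rat H to -0.07 without rat C, and on the surgical side between the times from 0.06 without rat A to 0.69 without rat E. With the neuronal marker level as covariate the surgical-side median between the times was -0.25. With the length trend removed the control-side median was 0.86.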
